A study of Mus musculus with 2 samples.

Results

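The genes described here act in cholesterol efflux and storage, and they were followed in hypothalamic microglia sorted by uptake of blood plasma protein. They are Abca1, Abcg1, Lipa, Npc1, Npc2, Soat1, Plin2, Nr1h2 and Nr1h3, and they were chosen by name, with no threshold on their values, from the 31053 genes listed in the deposited count tables. All 9 were listed there, each under a single Ensembl identifier. The cells came from the hypothalamus of young wild-type mice, several of which were pooled, 20 hours after the mice had received plasma protein labelled with a dye. Microglia, the resident macrophages of the brain, were sorted by fluorescence into a plasma-negative and a plasma-positive fraction, so both groups share genotype, region and injection and differ by the dye signal. Each fraction gave 1 droplet library (Chromium Single Cell 3' kit v3.1), and sex, strain and number of mice were not given in the sources used here. Without replicate libraries, differences are given as sizes with counting intervals, and no test was possible. These intervals are exact, at 95%, and cover counting error only, not differences between mice, sorts or library preparations.

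Macrophages take up cholesterol in lipoproteins, membranes and dying cells and cannot degrade the sterol ring, so they either export cholesterol or store it as ester. Lysosomal acid lipase (Lipa) frees cholesterol from esters in the lysosome, and the NPC2 and NPC1 proteins pass it on through the lysosomal membrane. In the endoplasmic reticulum Soat1 re-esterifies it for lipid droplets, which carry the coat protein perilipin 2 (Plin2), while the transporters Abca1 and Abcg1 load it onto apolipoproteins and lipoprotein particles. The liver X receptors Nr1h2 (LXR-beta) and Nr1h3 (LXR-alpha) sense oxysterols and, with a retinoid X receptor partner, switch on Abca1, Abcg1 and Apoe. Apoe encodes the main lipid-carrying apolipoprotein of the brain, and it was the gene used here to divide the cells of each library.

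Kept were cells with 500 or more unique molecular identifiers (UMIs, 1 per captured RNA molecule), 300 or more genes and no more than 10% mitochondrial UMIs. After this, 9860 cells (34534518 UMIs) stood in the plasma-negative library against 10362 (41984977 UMIs) in the plasma-positive one, at medians of 3270 and 3753 UMIs per cell. All 11 microglia markers examined were present, the rarest of them in 64.4% of the cells of the plasma-negative and 68.0% of the cells of the plasma-positive library. Cells with at least 1 Apoe UMI are called Apoe-holding and those with 0 Apoe-free. The plasma-negative library had 1511 Apoe-holding cells, 15.3% of its cells (14.6 to 16.0), and the plasma-positive library had 3626, or 35.0% (34.1 to 35.9). Apoe-holding cells were more deeply sequenced, with medians of 3795 against 3199 UMIs in the plasma-negative library and 4180 against 3564 in the plasma-positive library, and they had more mitochondrial UMIs, 1.254% against 1.051% and 1.413% against 1.207%. Levels are therefore also given standardised over 10 classes of cells with like UMI totals. Levels are UMIs per 1000000 UMIs of the group (CPM). Because molecules are counted near the 3' end, CPM is not scaled by gene length, and levels were compared between groups of cells and not between genes.

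The first question was whether the efflux and storage genes differed with the sort. The 9 genes made up 45633 UMIs, 0.132% of all UMIs, in the plasma-negative library and 61018 UMIs, 0.145%, in the plasma-positive library. Npc2 had the highest ratio among the 8 genes with at least 10 CPM, at 1.16-fold higher in plasma-positive cells, followed by Soat1 at 1.12-fold. The size rule used throughout called a gene higher when it was at least 25% higher, and lower when it was at least 20% lower. None of these 8 genes passed it in either direction, beside 0.934% of 8355 features called higher and 0.862% called lower. The median log2 ratio over the 9 genes was 0.08, against -0.04 over all 8355 features, whose middle 50% lay between -0.11 and 0.04. Counting intervals lay above 0 for Abca1, Lipa, Npc2, Soat1 and Plin2 and below 0 for none of the genes. The share of all features with such intervals was not counted, so this does not set the genes apart from other features. Apoe, for comparison, was at 171.3 CPM in the plasma-negative and 1190 CPM in the plasma-positive library, a 6.95-fold difference.

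**Figure D1:**
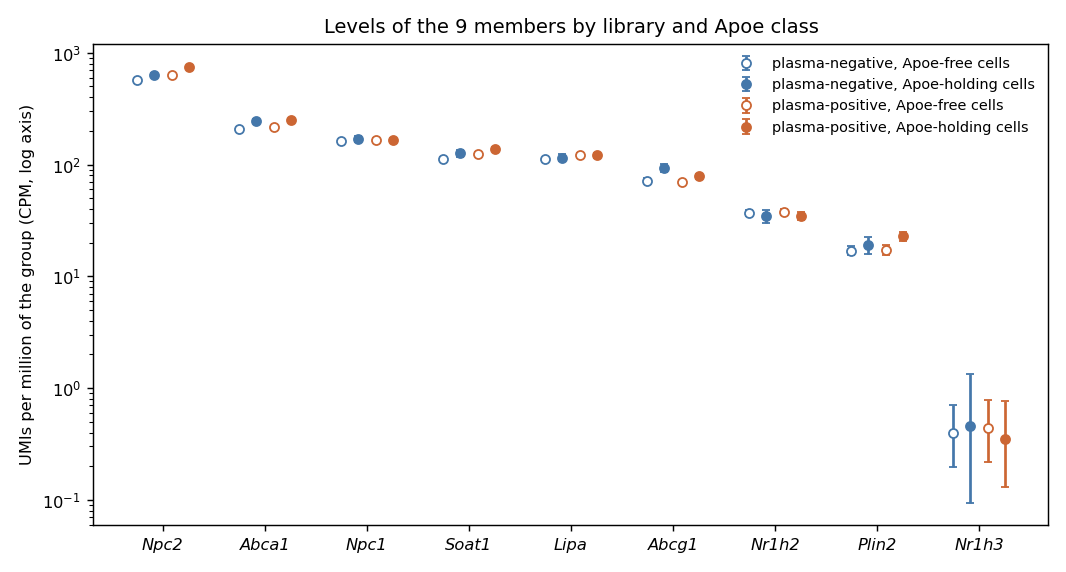
Level of each of the 9 genes in CPM on a log axis, in Apoe-free cells (open circles) and Apoe-holding cells (filled circles) of the plasma-negative (blue) and plasma-positive (orange) libraries, with exact 95% Poisson intervals. Npc2 in plasma-positive Apoe-holding cells is at 750.4 CPM, above its other groups, and Nr1h3 is below 1 CPM in all 4 groups.

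Abca1, the transporter that passes cholesterol to lipid-poor apolipoproteins, stood at 215.4 CPM in the plasma-negative and 228.5 CPM in the plasma-positive library, 1.06-fold higher (1.03 to 1.09). Standardised over depth the ratio was 1.02-fold, and it was above 1 in 8 of 10 depth classes. Split by Apoe, its level was 208.5 CPM in plasma-negative Apoe-free cells, 214.7 in plasma-positive Apoe-free cells, 244.8 in plasma-negative Apoe-holding cells and 248.8 in plasma-positive Apoe-holding cells. The order thus followed Apoe and not the sort, and within each Apoe class the intervals of both libraries overlapped. Apoe-holding cells had 1.17-fold more Abca1 (1.11 to 1.24) in the plasma-negative library and 1.16-fold more (1.11 to 1.21) in the plasma-positive library, or 1.12-fold and 1.14-fold when standardised over depth.

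The region just upstream of Abca1 is shown because LXR-RXR pairs are known to bind direct repeats of a hexamer, and an element of this kind just upstream of Abca1 has been described. Abca1 occupies bases 53030787 to 53159895 of chromosome 4 (minus strand, build GRCm38, annotation GENCODE M21, as for the other genes). The 250 bases before its annotated start, chr4:53159896-53160145 on the minus strand of GRCm38.p6 as given by RefSeq, read 5' to 3' as follows, with capitals marking a match to a relaxed direct repeat. This was searched on both strands as 2 copies of GGTNA with any 5 bases between them.
Abca1 upstream region: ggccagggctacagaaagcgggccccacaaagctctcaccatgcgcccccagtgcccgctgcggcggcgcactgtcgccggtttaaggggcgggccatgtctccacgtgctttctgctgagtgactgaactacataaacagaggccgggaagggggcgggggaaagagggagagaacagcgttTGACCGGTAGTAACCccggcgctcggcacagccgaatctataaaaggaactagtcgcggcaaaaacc
The match read on the opposite strand and lay 67 to 53 bases upstream of the start. This relaxed form was written after the sequence had been seen, and 204 of 32817 windows of this length, 0.622%, held a match to it. The idealised repeat, 2 copies of AGGTCA with any 4 bases between them, matched 5 windows (0.0152%) and not that of Abca1. RefSeq windows were found for 7 of the 9 genes, all but Abcg1 and Npc1, and neither form was found in those of Lipa, Npc2, Soat1, Plin2, Nr1h2 or Nr1h3.

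Abcg1, which exports cholesterol to mature lipoprotein particles (chromosome 17, 31057675 to 31117988, plus strand), was higher in Apoe-holding than in Apoe-free cells of both libraries. Its overall level was 75.8 CPM in the plasma-negative and 73.4 CPM in the plasma-positive library, 0.968-fold (0.918 to 1.02), and 5 of 10 depth classes were higher. Apoe-free cells held 71.8 CPM in the plasma-negative and 69.8 CPM in the plasma-positive library, with overlapping intervals. Apoe-holding cells of the plasma-negative library held 92.97 CPM (85.8 to 101) and those of the plasma-positive library 78.6 CPM (74.4 to 82.9). The ratio of Apoe-holding to Apoe-free cells was thus 1.30-fold (1.18 to 1.42) in the plasma-negative library, above 1 in 10 of 10 depth classes, and 1.12-fold (1.05 to 1.21) in the plasma-positive library, above 1 in 6 of 10. The intervals of these ratios overlapped. Among Apoe-holding cells Abcg1 was 0.845-fold as high in the plasma-positive as in the plasma-negative library (0.768 to 0.931) and lower in 9 of 10 depth classes. In cells with exactly 1 Apoe UMI the plasma-negative library held 93.2 CPM (82.7 to 105) and the plasma-positive library 69.4 CPM (63.5 to 75.8). With 2 Apoe UMIs the levels were 101.8 CPM (83.4 to 123) and 75.03 CPM (64.6 to 86.7), with 3 to 5 they were 82.8 and 81.3 CPM, and with 6 or more 95.2 and 92.3 CPM. The intervals overlapped in each class but that of 1 UMI.

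Npc2, the soluble lysosomal protein that binds cholesterol freed from esters (chromosome 12, 84754562 to 84773152, minus strand), was higher in plasma-positive cells overall and in both Apoe-free and Apoe-holding cells. Its level was 586.1 CPM in the plasma-negative and 679.5 CPM in the plasma-positive library, 1.16-fold (1.14 to 1.18), and above 1 in 10 of 10 depth classes, with log2 ratios from 0.13 to 0.41. By Apoe class it was at 574.3 CPM in plasma-negative Apoe-free cells, 631.2 in plasma-positive Apoe-free cells, 636.2 in plasma-negative Apoe-holding cells and 750.4 in plasma-positive Apoe-holding cells. The intervals of the middle pair overlapped and the outer groups stood apart. Apoe-holding cells had 1.11-fold more Npc2 (1.07 to 1.15) in the plasma-negative and 1.19-fold more (1.16 to 1.22) in the plasma-positive library. The sort ratio was 1.10-fold (1.08 to 1.12) in Apoe-free cells and 1.18-fold (1.14 to 1.22) in Apoe-holding cells, and it was above 1 in 10 of 10 depth classes of both.

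Lipa, the lysosomal acid lipase (chromosome 19, 34492318 to 34527474, minus strand), was at 112.1 CPM in the plasma-negative and 120.9 CPM in the plasma-positive library, 1.08-fold (1.03 to 1.12). Within Apoe-free cells its levels were 111.4 and 121.3 CPM, and within Apoe-holding cells 115.0 and 120.5 CPM. Its ratio by Apoe was 1.03-fold (0.953 to 1.12) in the plasma-negative and 0.993-fold (0.938 to 1.05) in the plasma-positive library, so no difference by Apoe was detectable beyond counting error. Npc1, the lysosomal membrane partner of Npc2 (chromosome 18, 12189692 to 12236400, minus strand), was at 162.6 and 165.6 CPM, 1.02-fold (0.983 to 1.06), with 5 of 10 depth classes above 1. Its ratio by Apoe was 1.04-fold (0.976 to 1.11) and 0.994-fold (0.947 to 1.04). Npc1 overlaps Rmc1 and Gm15956 on the other strand, and the use of strand in counting was not given in the sources used here, so its counts may include theirs.

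Soat1, the enzyme that esterifies cholesterol (chromosome 1, 156424525 to 156474331, minus strand), was at 115.3 CPM in the plasma-negative and 129.3 CPM in the plasma-positive library, 1.12-fold (1.08 to 1.17). The ratio was 1.10-fold when standardised over depth and above 1 in 10 of 10 depth classes. Its 4 levels by Apoe were 112.8 CPM in plasma-negative and 123.8 in plasma-positive Apoe-free cells, and 125.9 and 137.4 in Apoe-holding cells. The ratio of Apoe-holding to Apoe-free cells was 1.12-fold (1.03 to 1.21) and 1.11-fold (1.05 to 1.17). Soat1 overlaps the gene model Gm37648 on the other strand, which could share its counts.

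Plin2, the lipid droplet coat protein (chromosome 4, 86648386 to 86670060, minus strand), was sparse, with 599 UMIs in the plasma-negative and 815 in the plasma-positive library. Its level was 17.3 and 19.4 CPM, 1.12-fold (1.006 to 1.246). Apoe-free cells were alike in both libraries, at 16.98 and 17.17 CPM. Apoe-holding plasma-negative cells were at 18.9 CPM (15.7 to 22.5) and Apoe-holding plasma-positive cells at 22.7 CPM (20.5 to 25.1), with overlapping intervals. The ratio by Apoe was 1.11-fold (0.907 to 1.36) in the plasma-negative and 1.32-fold (1.15 to 1.52) in the plasma-positive library. The sort ratio among Apoe-holding cells, 1.20-fold, had an interval from 0.980 to 1.48.

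The receptors did not differ by the sort beyond counting error. Nr1h2 (chromosome 7, 44549616 to 44553951, minus strand) was at 36.28 CPM in the plasma-negative and 36.32 CPM in the plasma-positive library, 1.00-fold (0.928 to 1.08). It was lower in Apoe-holding cells of both libraries, at 34.47 against 36.71 CPM and 34.52 against 37.55 CPM, with both intervals of the ratio spanning 1 (0.810 to 1.09 and 0.828 to 1.02). Nr1h3 (chromosome 2, 91184061 to 91202834, minus strand) had 14 UMIs in the plasma-negative and 17 UMIs in the plasma-positive library, 0.405 CPM in both, and the interval of its ratio ran from 0.463 to 2.19. Its counts are too few to compare Apoe classes, with 3 and 6 UMIs in Apoe-holding cells. Nr1h3 also overlaps Gm13783 and Gm23390, which could share reads with it.

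The ratios by Apoe were also set against those of all features. In the plasma-negative library 1 of the 8 genes with at least 10 CPM, Abcg1, was called higher in Apoe-holding cells and 0 were called lower, beside 1.13% of 8379 features higher and 3.32% lower. In the plasma-positive library 1 of 8, Plin2, was higher and 0 were lower, beside 1.41% of 8321 features higher and 1.48% lower. The median log2 ratio over the 9 genes was 0.15 in both libraries, against -0.05 and -0.06 over all features. The middle 50% of features lay between -0.13 and 0.03 in the plasma-negative and between -0.12 and 0.01 in the plasma-positive library. When the sort was compared within Apoe classes, 0 of 8 genes passed the rule in either direction. Beside this, 0.61% of 8366 features were higher and 1.2% lower in plasma-positive Apoe-free cells, and 2.59% of 8343 were higher and 3.34% lower in plasma-positive Apoe-holding cells.

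**Figure D2:**
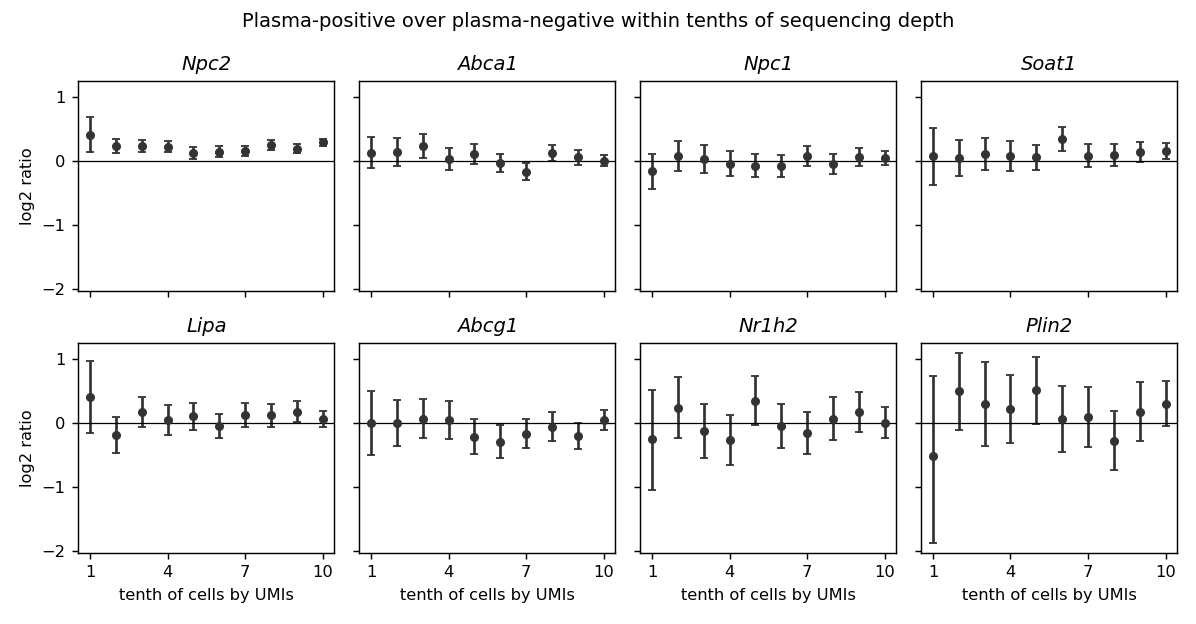
Log2 ratio of plasma-positive over plasma-negative CPM for 8 genes (Nr1h3 left out for its few UMIs) within 10 classes of cells ordered by UMIs per cell, with exact 95% intervals from counting error. Npc2 and Soat1 are above 0 in 10 of 10 classes, and Abcg1, Npc1 and Nr1h2 in 5 of 10.

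Cells with many Apoe UMIs differed more. This comparison was chosen after the values of the Apoe classes had been seen. The plasma-negative library had 262 cells and the plasma-positive library 910 cells with 6 or more Apoe UMIs. Plin2, Npc2, Abcg1, Abca1 and Soat1 were higher in these cells than in Apoe-free cells of both libraries, with intervals above 1. The share of all features with such intervals was not counted. Plin2 was at 27.8 CPM (35 UMIs) against 16.98 in the plasma-negative library, 1.64-fold (1.13 to 2.31), and at 30.4 CPM (149 UMIs) against 17.17 in the plasma-positive library, 1.77-fold (1.46 to 2.14). Npc2 was at 729.1 against 574.3 CPM, 1.27-fold (1.19 to 1.36), and at 927.0 against 631.2 CPM, 1.47-fold (1.42 to 1.52).

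Abca1 reached 260.2 CPM, 1.248-fold (1.113 to 1.395), in the plasma-negative and 286.2 CPM, 1.33-fold (1.26 to 1.41), in the plasma-positive library. Soat1 reached 140.4 CPM, 1.24-fold (1.06 to 1.45), and 164.9 CPM, 1.33-fold (1.23 to 1.44), and Abcg1 was 1.33-fold (1.09 to 1.60) and 1.32-fold (1.19 to 1.47) above Apoe-free cells. Npc1 was below Apoe-free cells, at 141.2 CPM, 0.876-fold (0.750 to 1.02), and 146.3 CPM, 0.881-fold (0.813 to 0.954). Its log2 ratios, -0.19 and -0.18, lay within the middle 50% of all features, from -0.30 to 0.08 and from -0.30 to -0.02. Nr1h2 was lower in the plasma-negative library, at 25.4 CPM from 32 UMIs, 0.692-fold (0.470 to 0.982), and not in the plasma-positive library, at 39.4 CPM, 1.05-fold (0.895 to 1.23). Lipa was at 0.975-fold and 0.952-fold, with intervals spanning 1.

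By the size rule 3 of 8 genes were higher and 1 lower in the plasma-negative library, beside 7.69% of 8490 features higher and 22.3% lower, and 5 of 8 were higher and 0 lower in the plasma-positive library, beside 5.23% of 8410 higher and 21.1% lower. The median log2 ratio over all features was itself -0.12 and -0.16 here. Median depth was 4193 and 4605 UMIs in these cells. Standardised over depth, the ratios in the plasma-positive library were 1.90-fold for Plin2, 1.47-fold for Npc2, 1.30-fold for Abca1, 1.32-fold for Soat1, 1.28-fold for Abcg1 and 0.852-fold for Npc1.

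**Figure D3:**
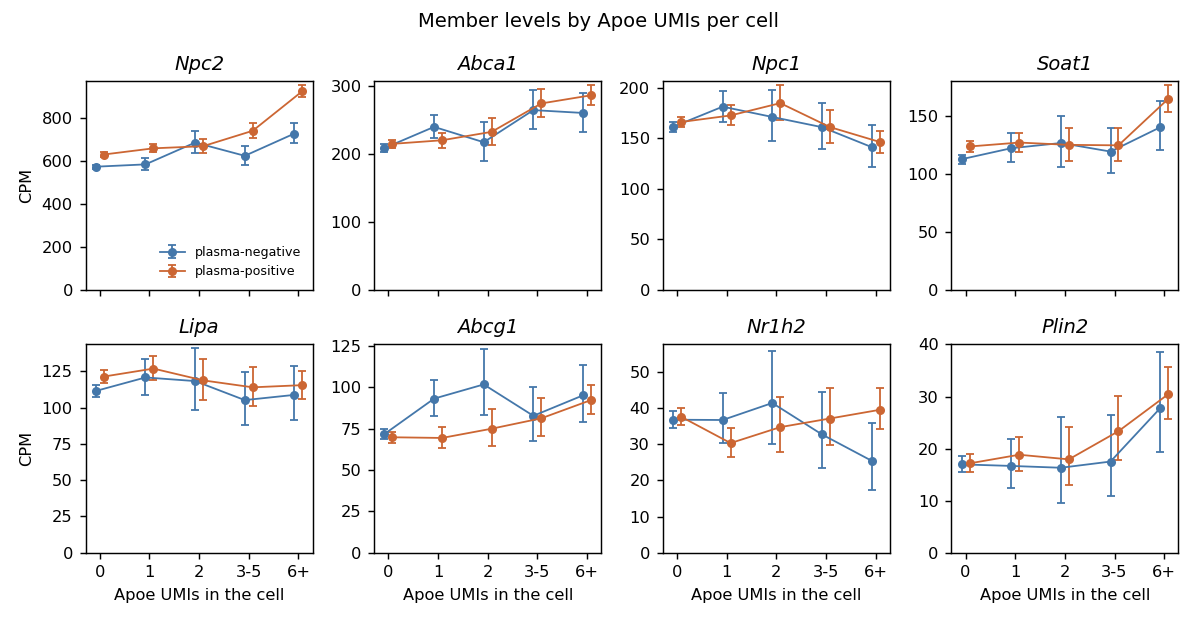
Level in CPM of 8 genes against Apoe UMIs in the cell (0, 1, 2, 3 to 5, 6 or more) in the plasma-negative (blue) and plasma-positive (orange) libraries, with exact 95% Poisson intervals. Npc2 in the plasma-positive library goes from 631.2 to 927.0 CPM, Plin2 is highest in the last class of both libraries, and Lipa is flat.

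The steps between the classes differed by gene. In the plasma-positive library Npc2 was at 631.2, 660.1, 670.0, 742.0 and 927.0 CPM in cells with 0, 1, 2, 3 to 5 and 6 or more Apoe UMIs, each class above the one before, although the intervals of 1 and 2 UMIs overlapped. In the plasma-negative library the same classes were at 574.3, 585.1, 687.0, 625.1 and 729.1 CPM, with no steady order. Soat1 in the plasma-positive library stayed between 123.8 and 127.2 CPM up to 5 Apoe UMIs and was at 164.9 CPM beyond. Plin2 in the plasma-negative library stayed between 16.3 and 17.5 CPM up to 5 Apoe UMIs.

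Shares of cells holding a gene were compared after each cell was thinned to 1000 UMIs, which left out 796 plasma-negative and 603 plasma-positive cells that were shallower. Npc2 was found in 43.0% (42.0 to 44.1) of the plasma-negative cells and in 47.2% (46.2 to 48.2) of the plasma-positive cells, against 75.7% and 83.4% unthinned. Abca1 was found in 18.0% and 18.7%, Npc1 in 14.4% and 15.2%, Soat1 in 10.3% and 11.4%, Lipa in 9.98% and 10.7%, Abcg1 in 6.82% and 6.90%, Nr1h2 in 3.26% and 3.30%, Plin2 in 1.85% and 1.96%, and Nr1h3 in 0.0441% and 0.0512%. At 1000 UMIs the intervals of the libraries overlapped for every member but Npc2. Thinned to 2000 UMIs, those of Soat1 did not overlap either, its share being 19.8% (19.0 to 20.7) in the plasma-negative library against 22.0% (21.2 to 22.9). The sorted cells offer no cell class that should lack these genes, so a share due to free RNA could not be set beside them.

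The genes were then set against each other. Within each library, cells with at least 1 UMI of a gene were compared with cells that had 0, standardised over depth, and the features with at least 50 CPM in both libraries were ranked by the lower of their 2 log2 ratios, as a measure of likeness. This describes cells of 1 library and has no replicate. Abca1 and Abcg1 were each other's closest match. In the 4306 plasma-negative cells holding Abca1, Abcg1 was at 88.4 CPM against 62.0 CPM in the 5554 cells without it. In the plasma-positive library it was at 83.8 CPM in 5085 holding cells against 59.4 CPM in 5277 others. The standardised log2 ratios were 0.48 and 0.45, rank 1 of 3356 features, where the 99th percentile of features was 0.22 and 0.25. In cells holding Abcg1, Abca1 was at 268.1 against 196.6 CPM and 282.4 against 206.7 CPM, standardised log2 ratios of 0.38 and 0.43 and again rank 1 of 3356. In Apoe-free cells alone the pair stayed at rank 1 in both directions, with log2 ratios of 0.51 and 0.41 for Abcg1 and 0.38 and 0.34 for Abca1. With cells thinned to 1000 UMIs, Abca1 fell to rank 10 among cells holding Abcg1.

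**Figure D4:**
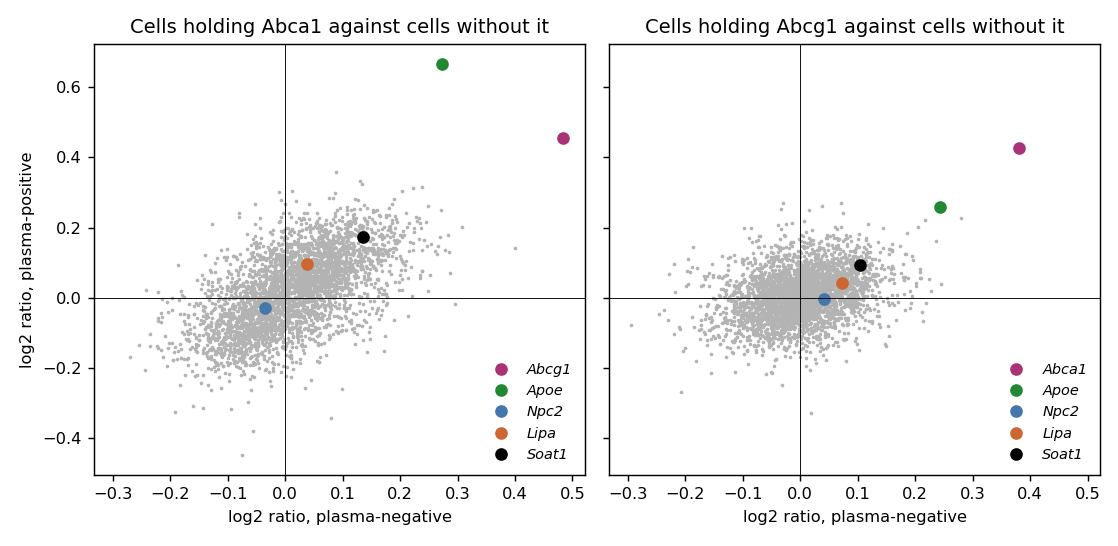
Each point is 1 of 3356 features, placed by the depth-standardised log2 ratio of its CPM in cells holding Abca1 (left) or Abcg1 (right) over cells without it, in the plasma-negative library (x axis) and the plasma-positive library (y axis). Abcg1 lies at 0.48 and 0.45 on the left and Abca1 at 0.38 and 0.43 on the right, apart from the cloud, while Lipa, Npc2 and Soat1 lie within it.

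Apoe ranked second in cells holding Abca1, with log2 ratios of 0.27 and 0.67, and second in cells holding Abcg1, at 0.24 and 0.26. These ranks were less stable. Thinned to 1000 UMIs, Apoe was at rank 244 and 356, and with the cells of most UMIs left out it was at rank 557 among cells holding Abca1. At rank 3 in cells holding Abca1 was Fgd4, an exchange factor for the GTPase Cdc42 (0.27 and 0.25).

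The other genes did not pair up in this way. Apoe ranked first in cells holding Npc2, at 185.2 against 94.8 CPM in the plasma-negative and 1270 against 416.0 CPM in the plasma-positive library, standardised log2 ratios of 0.98 and 1.55. It was also first in cells holding Soat1 (0.29 and 0.75) and Plin2 (0.69 and 1.29). For the remaining genes Apoe ranked at or near the end. Its rank was 3355 of 3356 in cells holding Npc1 (-0.17 and -0.41) and 3327 of 3356 for Lipa (-0.16 and -0.08). For Nr1h2 it was 3357 of 3357 (-0.48 and -0.11). Unstandardised, the log2 ratio of Apoe in the plasma-positive library was above 0 in cells holding Lipa (0.13, 0.11 to 0.16) and Nr1h2 (0.08, 0.05 to 0.12). In the plasma-negative library it was below 0 in both (-0.08 and -0.43). For Npc1 it was below 0 in both libraries (-0.11 and -0.08). The direction for Lipa and Nr1h2 in the plasma-positive library thus depended on the standardisation. Unlike those for Abca1 and Abcg1, these ranks of Apoe were not recomputed under alternatives. Next to Npc2 stood Tspo, which encodes a protein of the outer mitochondrial membrane (0.43 and 0.42), and the lysozyme gene Lyz2 (0.40 and 0.63), whose near-identical neighbour Lyz1 could share its reads. Next to Soat1 were Ipo7 (0.20 and 0.18) and Foxj2 (0.15 and 0.27), and next to Plin2 were Rif1 (0.31 and 0.28) and the cathepsin inhibitor gene Cstb (0.48 and 0.25).

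Lipa was followed most closely by Fgd4 (0.17 and 0.19), Plxna4 (0.19 and 0.16) and Zfp385a (0.15 and 0.18). Npc1 was followed by the lipid kinase gene Pik3c2a (0.22 and 0.26), Bicd2 (0.30 and 0.21) and Slc37a2 (0.20 and 0.21). Nr1h2 was followed by Ssbp4 (0.17 and 0.17), Rab6a (0.15 and 0.18) and Rnf11 (0.14 and 0.20). These ratios are small and near the 99th percentile of all features, between 0.16 and 0.22 for these 3 genes. The lysosomal pair Npc1 and Npc2 had log2 ratios below 0 in both directions, at -0.05 and -0.11 for Npc2 in cells holding Npc1, and -0.11 and -0.13 for Npc1 in cells holding Npc2. The medians of the ranked features were 0.01 and 0.03 in cells holding Npc1, and -0.04 and -0.05 in cells holding Npc2. Npc2 ranked 2919 of 3356 in the former cells. Npc1 ranked 1772 of 3356 in the latter, near the middle of all features. Nr1h3 was held by too few cells to rank.

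**Figure D5:**
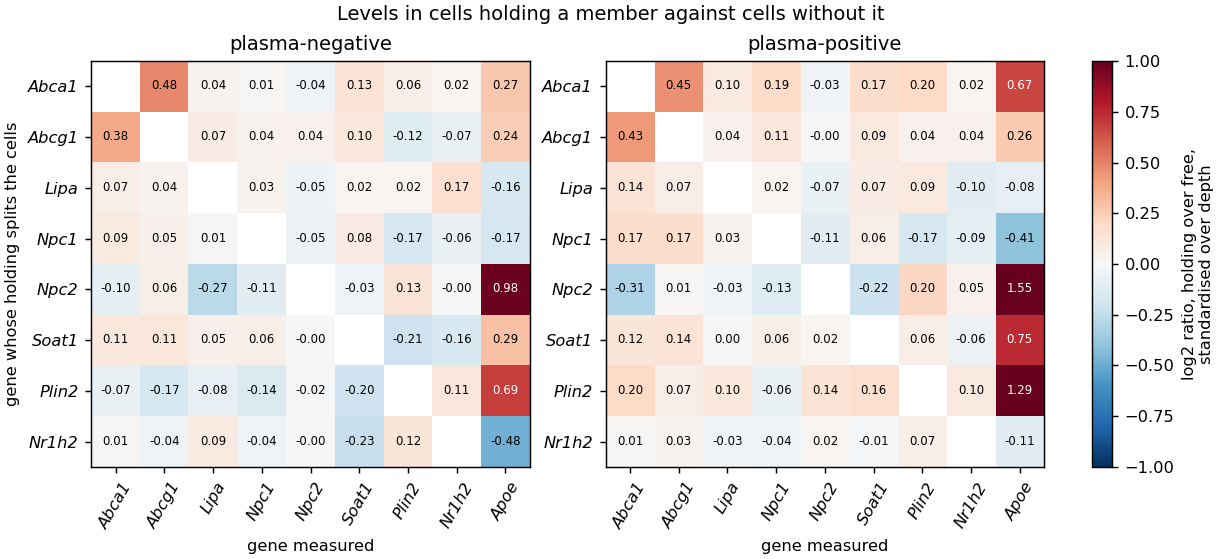
Depth-standardised log2 ratio of each gene (columns, with Apoe last) in cells holding the gene of each row over cells without it, for the plasma-negative (left) and plasma-positive (right) libraries, with the colour scale ending at 1 in either direction. The Abca1 and Abcg1 pair carries 0.48 and 0.38 on the left and 0.45 and 0.43 on the right, and the Apoe column is highest in the Npc2 and Plin2 rows.

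Levels were also read in cells marked by other response genes, as ranges of marker counts and not as cell types. Cells with 3 or more UMIs over 15 interferon-induced genes numbered 1281 in the plasma-negative and 2395 in the plasma-positive library. Compared with cells holding none, and standardised over depth, Npc2 had log2 ratios of 0.13 and 0.29, Plin2 0.07 and 0.54, and Abca1 -0.13 and 0.05. Apoe itself differed between these cells by log2 1.15 and 3.66, so interferon and Apoe classes overlap. Cells with a UMI of Lpl, Spp1 or Cst7, genes raised in lipid-laden and disease-associated microglia, numbered 827 and 1039. In them Plin2 had log2 ratios of 0.32 and 0.45, Npc2 0.12 and 0.24, Abcg1 0.19 and 0.15, and Soat1 0.14 and 0.09, while Lipa was at 0.03 and -0.04. Nr1h2 was at -0.40 and 0.04, Npc1 at -0.08 and -0.16, and Abca1 at -0.004 and -0.03. The unstandardised intervals of Plin2 spanned 0 in the plasma-negative library, both here (-0.12 to 0.60) and in the interferon-marked cells (-0.21 to 0.46).

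Further genes of sterol handling, in 7 lists, were compared by the same rule. Of 20 LXR partners and target genes, 12 reached 10 CPM and 0 of them passed it between the sorts. The most abundant was Mylip, the ubiquitin ligase that degrades the LDL receptor, at 326.2 CPM in plasma-negative and 301.3 CPM in plasma-positive cells. Between Apoe-holding and Apoe-free cells, Lpl, the lipase of circulating lipoproteins, was higher in both libraries. Its level was 49.3 against 30.5 CPM, 1.62-fold (1.42 to 1.84), and 43.7 against 22.5 CPM, 1.94-fold (1.74 to 2.17). The desaturase gene Scd2 was at 55.5 against 36.5 CPM, 1.52-fold (1.34 to 1.71), and 48.6 against 38.3 CPM, 1.27-fold (1.155 to 1.395). Apoc1, the apolipoprotein gene beside Apoe, reached 10 CPM only in plasma-positive Apoe-holding cells, at 14.3 CPM (243 UMIs) against 4 UMIs in Apoe-free cells, 89.3-fold (34.4 to 330.2). No gene of this list was called lower in Apoe-holding cells of either library.

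Of 24 genes of ester turnover and lipid droplets, 12 reached 10 CPM and 2 were higher in the plasma-positive library, with 0 lower. Nceh1, the neutral hydrolase that releases cholesterol from stored ester, was at 16.3 CPM in plasma-negative and 22.1 CPM in plasma-positive cells, 1.36-fold (1.22 to 1.51). Plin3, another droplet coat protein, was at 8.43 and 10.8 CPM, 1.28-fold (1.10 to 1.49). Nceh1 was also higher in Apoe-holding than in Apoe-free cells, 1.35-fold (1.10 to 1.64) in the plasma-negative and 1.55-fold (1.36 to 1.77) in the plasma-positive library. Lower in Apoe-holding plasma-negative cells were Abhd5, the co-activator of triglyceride lipase (0.727-fold, 0.559 to 0.934), and the triglyceride-forming enzyme gene Dgat1 (0.789-fold, 0.601 to 1.02). In the plasma-positive library these were at 1.02-fold and 0.924-fold. Acsl4, the most abundant of the list, was at 81.5 and 83.5 CPM by sort.

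Among the other lists few genes passed the rule. For sterol transfer between membranes 0 of 15 did by sort over all cells or between Apoe-holding and Apoe-free cells. By sort within Apoe-free cells Stard5 was lower, and in cells with 6 or more Apoe UMIs Stard3 was lower than in Apoe-free cells of both libraries and Osbpl1a in the plasma-negative library. Lamp1, the list's most abundant gene, was at 862.6 and 940.5 CPM, 1.09-fold (1.07 to 1.11). Of 10 further lipid ABC transporters, Abca2 was at 9.47 CPM in plasma-negative and 11.9 CPM in plasma-positive cells, 1.253-fold (1.087 to 1.445), and Abcd4 was lower in Apoe-holding than in Apoe-free plasma-positive cells, 0.783-fold (0.674 to 0.907). Abca9 was the most abundant of them, at 323.0 and 321.1 CPM. For oxysterol metabolism 1 of 6 genes reached 10 CPM, the sterol hydroxylase gene Cyp27a1, at 31.7 and 27.9 CPM, 0.883-fold (0.812 to 0.959). For lipoprotein entry 2 of 8 did, led by the receptor gene Lrp1 at 370.2 and 372.4 CPM, and of 6 genes of the TFEB family and the PPARs 4 did, led by Tfe3 at 143.7 and 133.6 CPM. None of the genes in these last 3 lists passed the rule by sort or between Apoe-holding and Apoe-free cells. In cells with 6 or more Apoe UMIs against Apoe-free cells, Scarb1 and Mitf were lower in the plasma-negative library and Ppard was higher in the plasma-positive library.

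Markers of other cells were rare but not equal between the Apoe classes. The summed level of 10 markers of border-associated macrophages, another Apoe-rich macrophage of the brain, was 3.87 CPM in plasma-negative Apoe-free, 4.23 in plasma-negative Apoe-holding, 3.68 in plasma-positive Apoe-free and 12 in plasma-positive Apoe-holding cells. Of these markers, Lyve1 and Cd209f were at 0 in all cells of both libraries. In plasma-positive Apoe-holding cells 11 cells held 2 or more of the markers, and 0 cells did in the other 3 groups. Leaving these 11 cells out changed none of the counts of genes past the size rule by sort or between Apoe-holding and Apoe-free cells. The 8 monocyte markers summed to 8.17 and 11.2 CPM in Apoe-free and Apoe-holding plasma-negative cells and 9.45 and 20.5 CPM in plasma-positive cells, with Ly6c2 and Chil3 at 0 throughout. The 10 astrocyte and tanycyte markers summed to 2.04 and 4.08 CPM, and to 2.40 and 3.65 CPM, in the same order. Not all lists were higher in Apoe-holding cells. The 5 B cell markers summed to 49.1 and 44.0 CPM, and to 49.8 and 47.2 CPM. The 7 T or NK cell markers summed to 95.9 and 100.1 CPM, and to 98.95 and 86.75 CPM. The part of depth, of monocyte-type or glial RNA and of free RNA in the differences by Apoe was not tested beyond the standardised values given above.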

How the data were processed

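Raw UMI counts by gene and cell were deposited, as 1 matrix for each of the 2 libraries. Per the file headers they were written by Cell Ranger 6.1.2, while the submitters' processing notes name Cell Ranger 3.0.1. Genome build, annotation and use of strand were not given in the sources used here. GENCODE M21 on GRCm38 served only for coordinates and overlaps, and 30934 of 31053 identifiers were found in it. Cell barcodes were not used here.

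Counts were summed per group of cells and divided by the group's total. Features with at least 10 CPM in at least 1 group were compared by ratio, with no pseudocount, by a rule of size (at least 25% higher or 20% lower). Sums carry exact Poisson, ratios exact conditional binomial and shares Clopper-Pearson intervals (95%). No replicate exists, so no test was possible. Doublets were not removed: the automatic threshold of Scrublet called 1258 plasma-negative and 0 plasma-positive cells, so it had not worked, and removal at the expected rates was an alternative. Depth-standardised ratios weight 10 depth classes alike in both groups. The calculations were tested on simulated data. Python 3.11.15, numpy 2.4.6, scipy 1.17.1, pandas 2.3.3, scanpy 1.11.5 and matplotlib 3.10.9 were used.

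The 9 genes and all lists were chosen with earlier results of these data known. Besides the 9 genes, the text names from each list the genes past the size rule and the most abundant one, and for each of the 9 genes the 3 features most like it among those with at least 50 CPM in both libraries, except 1 feature that is not reported here. Alternatives changed the cell filters, doublets, depth, scaling, low-value filter and Apoe class.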

Additional observations from a re-analysis of the deposited data

How the results depend on the processing

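Of 591 recomputed values 484 kept within the spread allowed (1.5 times for counts of genes, counting intervals otherwise) and 107 moved. While 0 were marked as reversed, this mark did not cover every change of sign, and small ratios could cross 0. For Nr1h3 in Apoe-holding over Apoe-free plasma-positive cells (6 and 11 UMIs), the log2 ratio was -0.32, and 0.01 when standardised over depth. No scaling shifted the median of all features by more than 0.05. By sort, the count of genes past the size rule was 0 under all alternatives run, and the median log2 ratio was 0.033 when standardised over depth. By Apoe, the plasma-negative count of higher genes was 2 both with 3 or more Apoe UMIs (Abca1 and Plin2) and with class and levels from cells thinned to 1000 UMIs (Abcg1 and Plin2). In both, and with each cell thinned to 1000 UMIs, Nr1h2 was lower past the rule, at log2 -0.34, -0.33 and -0.34. The shares of cells, which rise with the thinning depth, account for 51 of the values that moved. The plasma-positive count was 0 with features of at least 50 CPM, which leaves Plin2 out, 3 with 2 or more Apoe UMIs, 4 with 3 or more, where the median log2 ratio was 0.30, and 2 when thinned. The share of all features past the rule was not counted under these alternatives, so these counts have no background beside them. The median log2 ratio of all features was -0.10 with 2 or more and -0.13 with 3 or more Apoe UMIs in the plasma-positive library. With 3 or more it was -0.08 in the plasma-negative library.

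Alternatives for genes in cells holding another gene were chosen after seeing the data. Thinned to 1000 UMIs, Abcg1 in cells holding Abca1 was at log2 0.36 (plasma-negative) and Abca1 in cells holding Abcg1 at 0.31 (plasma-positive), and the latter was 0.34 in Apoe-free cells. Apoe in cells holding Abca1 was at 0.11 and 0.48 thinned, 0.066 and 0.51 without the cells of most UMIs, and, in the plasma-positive library, 0.81 unstandardised, 0.72 without high Scrublet scores and 0.55 without cells holding border-macrophage markers. Apoe in cells holding Abcg1 was at 0.36 and 0.083 thinned and, in the plasma-positive library, 0.49 unstandardised, 0.36 without the cells of most UMIs and 0.38 without border-macrophage markers. The cause was not tested. No paired analysis was possible because only 1 library stands in each group, and for the same reason no replicate could be left out. Depth limits Nr1h3, with 14 and 17 UMIs, and Plin2 in the smaller Apoe classes.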

Other observations

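In the few cells with 3 or more UMIs of the chemokine genes Ccl3 and Ccl4, 53 plasma-negative and 81 plasma-positive cells, Abcg1 was at 116.2 against 75.2 CPM and 108.1 against 72.5 CPM in cells with none, depth-standardised log2 ratios of 0.58 and 0.48. Npc1 was lower there, at 116.2 against 161.8 CPM and 136.1 against 165.9 CPM, with both intervals spanning 0 on the log2 scale (-1.02 to 0.01 and -0.65 to 0.06). Plin2 was at 45.8 CPM from 13 UMIs and 32.0 CPM from 16 UMIs, against 16.95 and 19.28 CPM. Its log2 intervals ran from 0.52 to 2.22 and, spanning 0, from -0.08 to 1.44. Npc2 was higher in both libraries (0.02 to 0.43 and 0.34 to 0.61). For Lipa the interval lay above 0 in the plasma-negative library (0.17 to 1.02) and spanned 0 in the plasma-positive library (-0.20 to 0.52). In cells with 3 or more UMIs of cell cycle genes, 26 and 67 cells, Abcg1 was at 42.3 CPM from 6 UMIs and 37.1 CPM from 15 UMIs, against 75.7 and 74.0 CPM. Abca1 was at 218.7 against 215.6 CPM in plasma-negative and at 143.6 against 228.5 CPM in plasma-positive cycling cells.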
